A study of Saccharomyces cerevisiae with 6 samples.

Results

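The genes described here are INO2, which encodes a transcriptional activator of phospholipid synthesis in budding yeast (Saccharomyces cerevisiae), and 8 genes that work with it or under it, namely INO4, OPI1, INO1, ITR1, CHO1, PSD1, CHO2 and OPI3. INO2 was chosen by its low signal in cells deleted for FUN30, and the other 8 by their annotated roles. All 9 were measured among the 5449 genes tested for expression, each by 1 probe set, and 6 of the 9 had a deletion strain among the 4303 strains of a separate barcode experiment.

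The expression experiment compared a fun30 deletion (2 arrays) with the wild-type strain BY4741 (2 arrays), a haploid laboratory strain in which the deletion was made. FUN30 encodes an ATP-dependent nucleosome remodeller. Cultures of both genotypes, of 10 ml each in synthetic complete medium, were collected in log phase. In the barcode experiment, pooled diploid strains, each homozygous for a deletion, received a URA3 cassette that replaces ISU1 (1 array) or SOD2 (1 array), and each was set against the pool that received the circular plasmid pRS416. Transformants of that experiment grew for 2 days at 30 °C on medium without uracil. The labels do not say whether arrays of a genotype came from separate cultures or whether a second isolate of the deletion was used. The p-values therefore measure only the spread between these arrays, and an effect of losing Fun30 and an unrelated strain difference cannot be told apart.

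As background, Ino2 and Ino4 are basic helix-loop-helix proteins that bind DNA together, at an inositol-responsive element upstream of genes for phospholipid precursors. Opi1 represses these genes when inositol is plentiful, and leaves the endoplasmic reticulum membrane for the nucleus when phosphatidic acid there falls. INO1 encodes inositol-3-phosphate synthase, which starts inositol synthesis from glucose 6-phosphate, and its transcription is the standard readout of the circuit. CHO1, PSD1, CHO2 and OPI3 act one after another, from CDP-diacylglycerol through phosphatidylserine and phosphatidylethanolamine to phosphatidylcholine.

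The deleted gene checked the labels, since FUN30 had log2 signals of 3.37 and 3.55 in the deletion, against 9.63 and 9.40 in the wild type. The deletion signals lay below the background level of 5.23, the 95th percentile of probe sets annotated to genes outside the S. cerevisiae table. The 4 arrays had median log2 signals of 10.59 to 10.61 over the tested probe sets. All 6 genes specific to mating type a, the type of BY4741, were above background on every array, with summed linear signals of 36647.6 and 38840.4 in the deletion, against 41813.6 and 44225.2 in the wild type. The 4 genes specific to mating type alpha summed to 1027.9 and 1098.6 in the deletion, against 862.1 and 872.3 in the wild type. Of these, MF(ALPHA)1, the main alpha-factor gene, was below background on all 4 arrays, and STE3, which encodes the receptor for a-factor, had a difference of 0.48 that passed (log2, adjusted p = 0.0343, limma) but not with the second deletion array or the first wild-type array left out (adjusted p = 0.103 and 0.110, limma). The part of these marker differences in the results below was not tested.

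INO2 (YDR123C) had a much lower signal in the deletion. Its log2 signals were 7.40 and 7.27 in the deletion, against 8.68 and 8.79 in the wild type. The genotypes did not overlap, and all 4 arrays lay above background, the lowest by 2.04. The log2 difference (deletion minus wild type) was −1.40, which is 2.64-fold lower in the deletion. Each deletion array set against each wild-type array gave 4 differences, which lay between −1.53 and −1.28. Of the 5498 tested probe sets, 8 had a larger fall. These values chose the gene, so no test is given for them.

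The partner and the repressor of Ino2 did not share this fall. INO4 (YOL108C), which encodes the other subunit of the activator, had log2 signals of 10.74 and 10.82 in the deletion, against 10.72 and 10.77 in the wild type. The arrays of the genotypes overlapped, and the difference was 0.04 ± 0.07 (SE, adjusted p = 0.781, limma). OPI1 (YHL020C) had log2 signals of 11.01 and 11.09 in the deletion, against 11.17 and 11.16 in the wild type. Both deletion arrays were lower, by a difference of −0.12 ± 0.07 (SE) that did not pass the threshold of 0.05 (adjusted p = 0.357, limma).

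INO1 (YJL153C), which encodes inositol-3-phosphate synthase, differed little between the genotypes. Its log2 signals were 13.44 and 13.53 in the deletion, against 13.52 and 13.52 in the wild type. The deletion arrays lay on either side of the wild-type arrays. The difference was −0.04 ± 0.07 (SE, adjusted p = 0.780, limma), with a 95% interval from −0.21 to 0.13. On a linear scale this interval runs from 0.867 to 1.10 times the wild-type signal, whereas the INO2 signal in the deletion was 0.378 times that of the wild type. ITR1 (YDR497C), the main inositol transporter gene, had log2 signals of 14.07 and 14.15 in the deletion, against 14.12 and 14.07 in the wild type. Its arrays overlapped, and its difference of 0.01 (95% interval from −0.17 to 0.18, adjusted p = 0.961, limma) took the other sign, −0.0063, when the arrays were quantile normalized again.

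**Figure D1:**
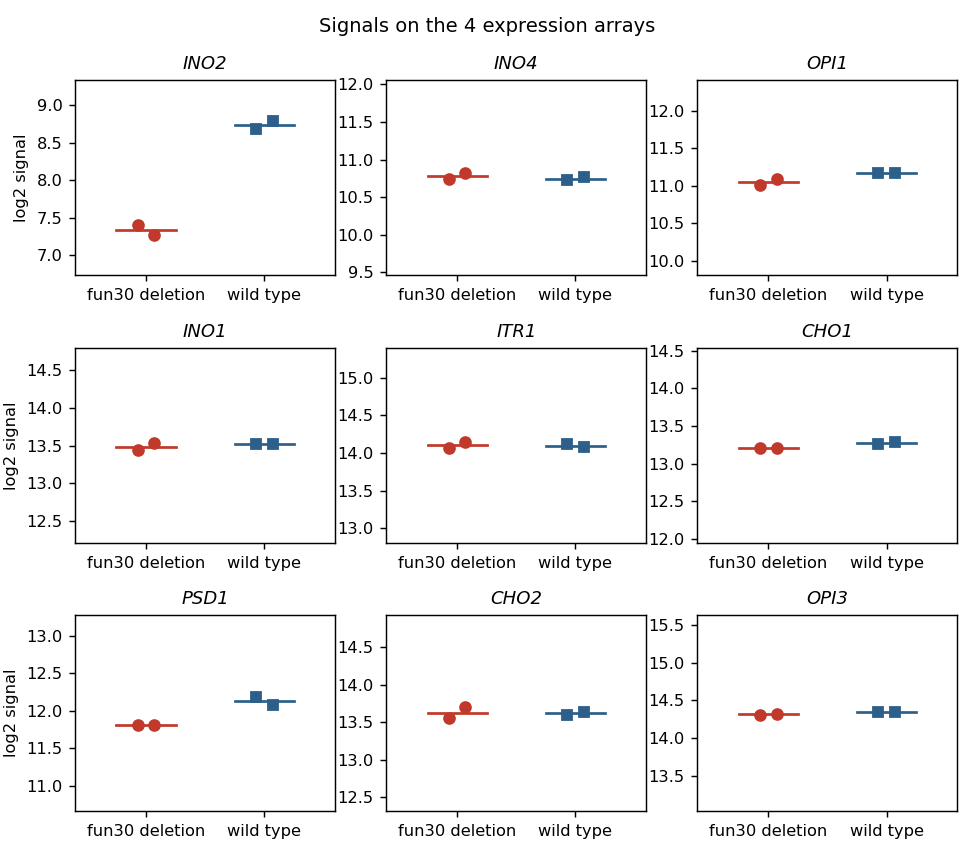
Log2 signals of the 9 genes on the 4 expression arrays, with the fun30 deletion (red circles) left of the wild type (blue squares), a horizontal bar at each mean, and panels of equal height in log2 units. INO2 stands at 7.40 and 7.27 in the deletion, against 8.68 and 8.79 in the wild type, and PSD1 is the 1 other gene with a visible gap, of 0.32.

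Along the route to phosphatidylcholine, the mitochondrial step had the largest difference. PSD1 (YNL169C), which encodes the phosphatidylserine decarboxylase of mitochondria, had log2 signals of 11.81 and 11.81 in the deletion, against 12.18 and 12.08 in the wild type. Both deletion arrays were below both wild-type arrays. The difference was −0.32 ± 0.07 (SE), or 0.801 times the wild-type signal, and did not pass over all probe sets (adjusted p = 0.0895, limma; unadjusted p = 0.0048). Differences at least as low as this were not rare, since 459 tested probe sets (8.35%) lay lower still.

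The genes before and after it in the route were close to the wild type. CHO1 (YER026C), the phosphatidylserine synthase gene, had log2 signals of 13.21 and 13.21 in the deletion, against 13.26 and 13.29 in the wild type (difference −0.07 ± 0.06 SE, adjusted p = 0.535, limma). The first methylation of phosphatidylethanolamine is made by the product of CHO2 (YGR157W), which had 13.55 and 13.70 in the deletion, against 13.60 and 13.63 in the wild type (difference 0.01 ± 0.08 SE, adjusted p = 0.952, limma). OPI3 (YJR073C), whose product makes the later methylations, had 14.31 and 14.32 in the deletion, against 14.34 and 14.35 in the wild type (difference −0.03 ± 0.06 SE, adjusted p = 0.823, limma). CHO1 and OPI3 were lower on both deletion arrays and CHO2 arrays overlapped, but the 95% intervals of all 3 included 0, the widest from −0.19 to 0.21 for CHO2.

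Of the 8 genes other than INO2, 0 passed over all probe sets, where 2.66% of the tested probe sets were called in either direction and 1.29% were called lower (limma, adjusted p). Those shares include a chromosome IV run, from YDR211W to YDR261C. Without it 23 of 5451 probe sets rose and 45 fell, beside 75 and 71 with it. At an unadjusted p under 0.05 the only one of the 8 was PSD1, where 22.2% of all probe sets were under that level. Their median difference was −0.03, beside −0.003 over all probe sets, with 5 lower and 3 higher in the deletion. Of the 3 that were higher, ITR1 changed sign as given above, and the sign of INO4, INO1, ITR1 and CHO2 depended on which array was left out. In 4 of the 8 the genotypes did not overlap and the deletion was lower, where 30.0% of all probe sets were of that kind.

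Of the 8 genes, only the 5 brightest were also set beside probe sets of similar brightness. INO1, ITR1, CHO1, CHO2 and OPI3 each averaged a log2 signal of at least 13, where the highest signal of any array was 15.21. Of the 652 tested probe sets that bright, 6 rose and 0 fell (limma, adjusted p), with an SD of the difference of 0.12, beside 0.28 over all tested probe sets. Differences among them ran from −0.43 for CBF5 to 0.87 for AHA1. The mark of 13 was set after the values were seen, and how far signals this bright can show a fall was not tested.

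Among genes outside the 9 that textbooks list as targets of Ino2 and Ino4, all 10 had a lower mean in the deletion and 0 of 10 passed (limma, adjusted over all probe sets). Of all tested probe sets, 50.7% had a lower mean. The median difference of the 10 was −0.17. In 9 of the 10 the genotypes did not overlap and the deletion was lower, where 30.0% of all probe sets were of that kind. This pattern was not particular to the targets. The 6 genes specific to mating type a were also all lower, 5 of them without overlap, with a median difference of −0.22. Of the 4 genes specific to mating type alpha, 3 were higher. Of the 10 targets, 4 had an unadjusted p under 0.05, where 22.2% of all probe sets did. All 4 were lower, a direction and level that 12.5% of all probe sets shared. Between single arrays of the genotypes, in 4 pairings, the median of the 10 lay between −0.20 and −0.11. The corresponding median within a genotype, replicate 1 minus replicate 2, was −0.02 for the deletion arrays and 0.08 for the wild-type arrays.

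**Figure D2:**
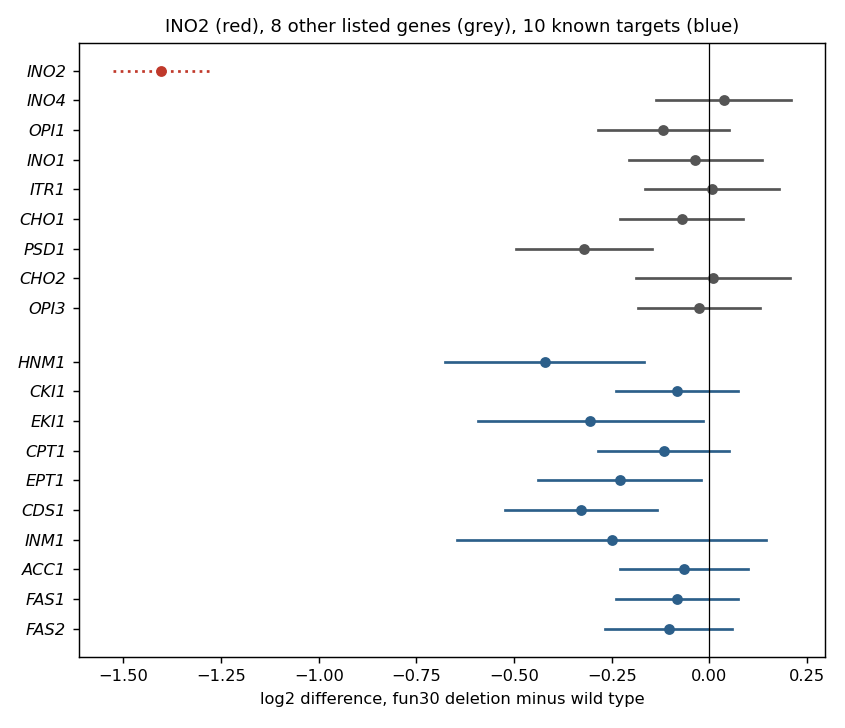
Log2 difference (fun30 deletion minus wild type) of INO2, the 8 other genes and 10 further known targets of Ino2 and Ino4. Solid lines are 95% intervals from limma over 2 arrays against 2, and the dotted line of INO2 is the range over the 4 pairings of arrays, from −1.53 to −1.28. All 10 further targets lie left of 0, between −0.42 and −0.06, and none comes near INO2.

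The targets with the largest differences act in uptake and at the branch point of the pathway. HNM1, the choline and ethanolamine transporter gene, had log2 signals of 12.08 and 12.05 in the deletion, against 12.62 and 12.36 in the wild type. The deletion arrays were lower than both wild-type arrays, and the difference of −0.42 ± 0.10 (SE) did not pass (adjusted p = 0.110, limma). CDS1, whose product makes CDP-diacylglycerol, had 11.49 and 11.54 in the deletion, against 11.92 and 11.77 in the wild type, a difference of −0.33 ± 0.08 (SE) that did not pass either (adjusted p = 0.106, limma). For both genes the spread between the wild-type arrays was larger than that between the deletion arrays. The 3 brightest targets, the fatty acid synthesis genes ACC1, FAS1 and FAS2, averaged at least 13 and differed by −0.10 to −0.06. The 7 others differed by −0.42 to −0.08, with a median of −0.25. With 1 array left out, the difference of HNM1 lay between −0.55 and −0.29, and that of EKI1 between −0.46 and −0.15.

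The rest of phospholipid and fatty acid synthesis was compared in lists of textbook members, 62 genes in all with the 10 targets and the regulators. Each of these targets also stands in the list of its own step, so the target list and the step lists are not separate results. None of the 62 passed in either direction (limma, adjusted over all probe sets), and 16 had an unadjusted p under 0.05, where 22.2% of all probe sets did. Of these 16, 13 were lower in the deletion, a direction and level that 12.5% of all probe sets shared. Their median difference was −0.06, with 40 genes lower and 22 higher. In the Kennedy pathway, which makes phosphatidylcholine and phosphatidylethanolamine from free choline and ethanolamine, all 6 genes had a lower mean, with a median of −0.12. Of these 6, EKI1, EPT1, CKI1 and CPT1 are also among the 10 targets. The largest differences there were −0.31 for EKI1, the ethanolamine kinase gene, and −0.23 for EPT1, an ethanolamine phosphotransferase gene. Among 5 genes of uptake and inositol phosphatases the median was −0.25, with HNM1 as above and −0.25 for GIT1, the glycerophosphoinositol transporter gene.

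Of the 12 genes of fatty acid synthesis and activation, 10 had a lower mean, and the list median was −0.14. FAA3, which encodes an acyl-CoA synthetase, had log2 signals of 9.24 and 9.07 in the deletion, against 9.83 and 9.61 in the wild type. This was the smallest adjusted p of the 62 genes (difference −0.57 ± 0.10 SE, adjusted p = 0.0706, limma). Its relative FAA4 differed by −0.46 ± 0.13 (SE, adjusted p = 0.150, limma). With 1 array left out, the difference lay between −0.68 and −0.46 for FAA3 and between −0.61 and −0.30 for FAA4. That of PLB2, a phospholipase B gene, lay between −0.65 and −0.37. OLE1, the fatty acid desaturase gene, differed by −0.42 ± 0.13 on all 4 arrays (SE, adjusted p = 0.164, limma).

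The other branches showed no common direction. Among 13 genes of phosphatidic acid, CDP-diacylglycerol and mitochondrial phospholipids, 7 were lower and 6 higher, with a median of −0.02, and after CDS1 the largest difference was 0.29 for CLD1, a cardiolipin deacylase gene. The 7 genes of phosphatidate phosphatases and diacylglycerol kinase stayed within −0.12 for NEM1, a subunit of the phosphatase that activates Pah1, and 0.11 for APP1, a phosphatidate phosphatase gene. Of 5 phospholipase genes, PLB2 differed by −0.51 and PLB3 by −0.26, and the list median was 0.09. Among 8 further regulators of INO1 the largest differences were 0.19 for IRE1, the sensor of the unfolded protein response, and −0.18 for UME6, a DNA-binding repressor.

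**Figure D3:**
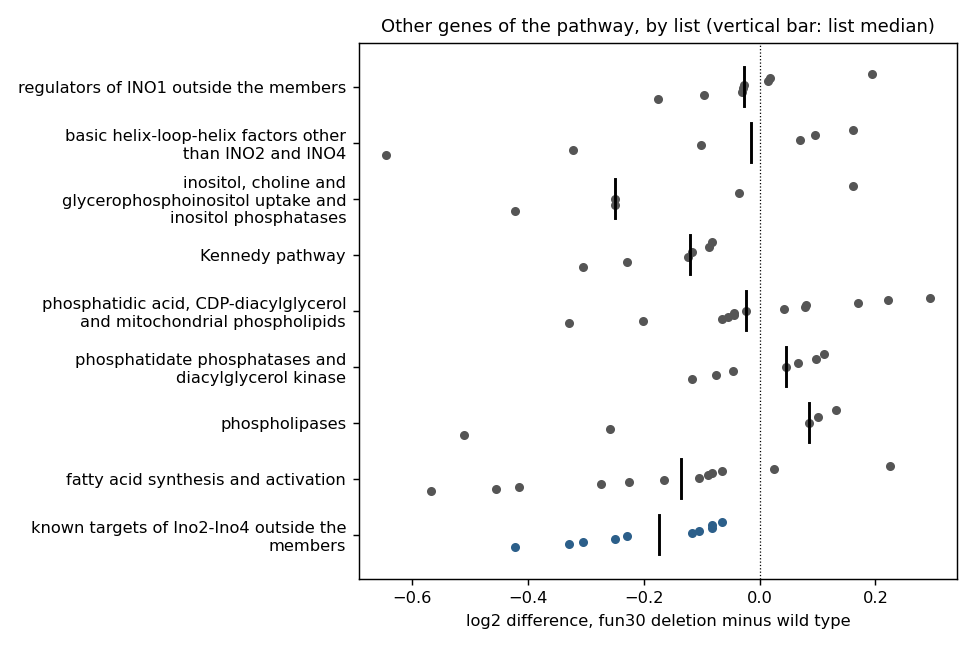
Log2 difference (fun30 deletion minus wild type) of each gene in 9 lists of the pathway, 1 point a gene over 2 arrays against 2, with a vertical bar at the list median and the known targets in blue. The known targets and the Kennedy pathway, which share EKI1, EPT1, CKI1 and CPT1, lie wholly left of 0, with medians of −0.17 and −0.12. None of the 62 genes passed the threshold.

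Other factors of the helix-loop-helix family were compared with INO2 and INO4. None of the 6 passed, and their median difference was −0.02. The largest was that of TYE7, an activator of glycolytic genes, with log2 signals of 10.89 and 10.35 in the deletion, against 11.37 and 11.17 in the wild type (difference −0.65 ± 0.19 SE, adjusted p = 0.150, limma). The deletion arrays of TYE7 were themselves 0.54 apart, and its difference lay between −0.92 and −0.37 with 1 array left out. PHO4, the activator of the phosphate regulon, differed by −0.32 ± 0.11 (SE, adjusted p = 0.192, limma). With 1 array left out, the difference of PHO4 lay between −0.47 and −0.17.

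The chromosomal neighbours of INO2 were read off the RefSeq gene table (assembly R64), and the suffixes W and C of the systematic names give the strand. INO2 (YDR123C) and YDR124W, an uncharacterised gene, are therefore transcribed away from each other and share the region between their starts, while KIN1 (YDR122W), a protein kinase gene, points towards INO2. YDR124W also fell, with log2 signals of 7.82 and 7.76 in the deletion, against 8.44 and 8.38 in the wild type. Its groups did not overlap, and the difference was −0.62 ± 0.07 (SE, adjusted p = 0.0184, limma), or 1.54-fold lower in the deletion. Without wild type replicate 1 the difference was −0.59 with an adjusted p of 0.0576 (limma).

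KIN1 had log2 signals of 11.03 and 11.23 in the deletion, against 10.88 and 11.16 in the wild type. These arrays overlapped, with a difference of 0.11 ± 0.12 (SE, adjusted p = 0.619, limma). Of 7 further measured genes within 5 places of INO2, a range chosen after the values were seen, 0 passed (limma, adjusted p), and 1, TRM1, had an unadjusted p under 0.05. Their differences ran from −0.61 for TRM1, a tRNA methyltransferase gene whose deletion arrays were 0.43 apart, to 0.16 for ECM18.

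**Figure D4:**
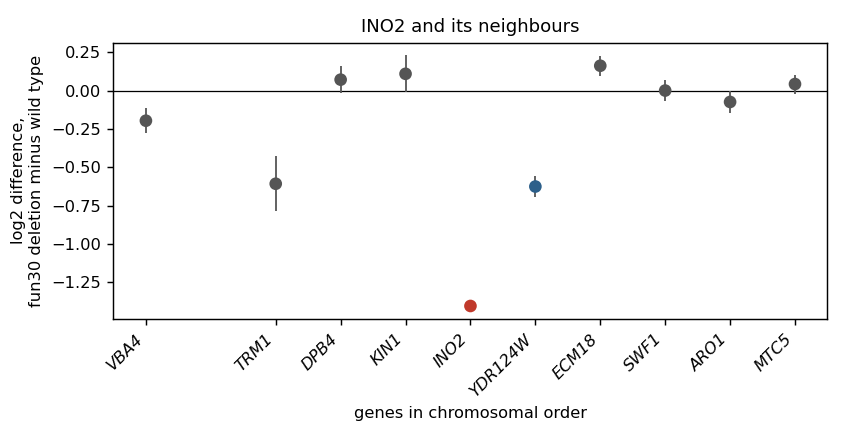
Log2 difference (fun30 deletion minus wild type) of INO2 (red), YDR124W (blue) and the other measured genes within 5 places, in chromosomal order, with SE bars from limma for all but INO2. INO2 at −1.40 and YDR124W at −0.62 are adjacent, with KIN1 at 0.11 on the other side of INO2.

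The genes whose pattern over the 4 arrays was nearest to that of INO2 were found by the root mean square distance of log2 signals, each gene centred on its wild-type mean. They were ARR3 (distance 0.0654), ARR2 (0.0712), IMD2 (0.136), SCP1 (0.138) and FAR1 (0.180), which had differences of −1.32, −1.34, −1.29, −1.58 and −1.26. ARR3 and ARR2 are adjacent arsenic resistance genes, IMD2 encodes an inosine monophosphate dehydrogenase, SCP1 an actin-binding protein and FAR1 an inhibitor of G1 cyclin kinases. The name of the IMD2 probe set marks it as open to signal from similar sequences, such as its close relatives. None of the 5 is in the lists of phospholipid or fatty acid genes. The fall of FAR1 (adjusted p = 0.0229, limma) was −1.14 without wild type replicate 1, with an adjusted p of 0.0805 (limma). The points are 4 arrays of 2 genotypes, so the distance reads mostly the size of the fall.

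The barcode arrays gave a value for the strains deleted for INO2, OPI1, INO1, ITR1, CHO2 and OPI3, and strains lacking INO4, CHO1 or PSD1 were not analysed here. Each strain was read by 1 or 2 features, and the value is the log2 ratio minus the array median. The labels leave the top of the ratio unnamed, and the dyes of the pools were exchanged between the arrays, so strains are placed only as above or below the median. Over 4235 strains the arrays correlated with r = 0.53, where both may share the plasmid pool. For orientation, the strain lacking RAD54, a recombination gene chosen after its values were seen, lay at 1.88 (ISU1) and 2.28 (SOD2). The strain deleted for FUN30 itself was at −1.43 (ISU1) and −1.20 (SOD2), and the strain lacking EXO1, a nuclease gene of DNA end resection, was at −1.31 and −1.33. There is 1 array for each cassette, so no value below has a replicate check.

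The opi3 strain lay farthest from the median. Its single feature had a deposited ratio of 0.33 with ISU1 and 0.70 with SOD2, which is −1.60 and −0.60 after centring. It was thus 3.03-fold below the median on the ISU1 array, where 8 of 4248 strains lay lower, and 1.51-fold below on the SOD2 array, where 275 of 4290 strains lay lower. The cho2 strain, which lacks the methylation just before, was near the median at −0.06 (ISU1) and 0.26 (SOD2). Its 2 features disagreed on the ISU1 array, at 0.41 and −0.54, and were 0.34 and 0.19 on the SOD2 array.

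The ino2 and ino1 strains each lay low on a different array. The ino2 strain had ratios of 1.17 (ISU1) and 0.55 (SOD2), which is 0.23 and −0.95 after centring. On the SOD2 array it was 1.93-fold below the median, with 69 of 4290 strains lower, whereas on the ISU1 array it lay above the median. The ino1 strain had ratios of 0.56 (ISU1) and 1.14 (SOD2), which is −0.84 and 0.10 after centring. It was 1.79-fold below the median on the ISU1 array, with 136 of 4248 strains lower.

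The strains without the repressor or the transporter were close to the median. The opi1 strain lay at −0.21 (ISU1) and 0.10 (SOD2). The itr1 strain lay at −0.0046 (ISU1) and −0.14 (SOD2). These differences are within or near the SD of a single feature, which was 0.28 on both arrays as estimated from strains with 2 features.

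None of the 6 strains was past 2-fold in the same direction on both arrays, where 2.55% of all strains were. The opi3 strain was past 2-fold on the ISU1 array, where 5.08% of strains were, and none of the 6 was past it on the SOD2 array, where 6.11% were. The opi3, ino2 and ino1 strains, which had the largest values of the 6, were each read by 1 feature. Of the 381 named strains with 1 feature on both arrays, 9.45% (ISU1) and 10.2% (SOD2) were past 2-fold, against 4.20% and 5.26% of the 3286 with 2 features on both.

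**Figure D5:**
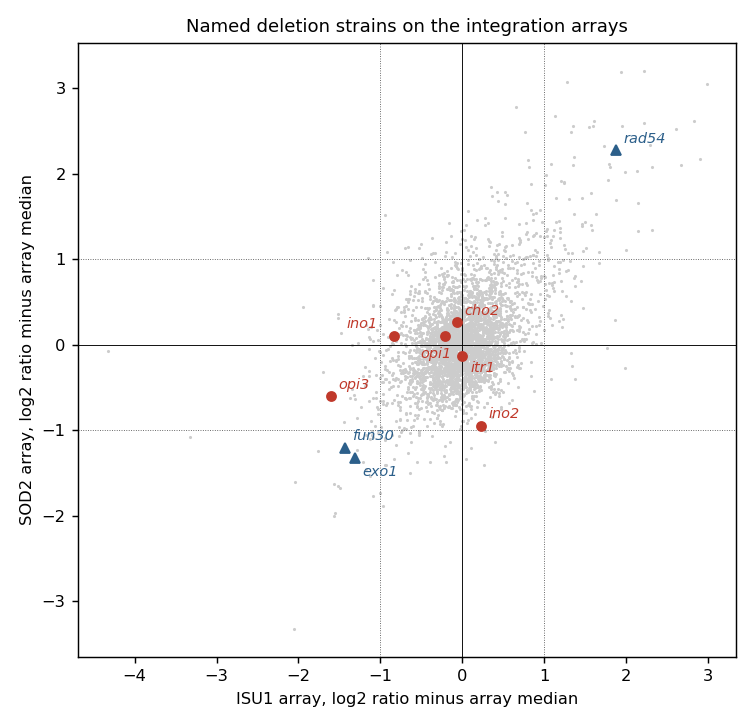
Log2 ratio minus array median of each named deletion strain (grey points) on the ISU1 array (horizontal) and the SOD2 array (vertical), with dotted lines at 2-fold. The 6 strains of the phospholipid genes are red circles and fun30, exo1 and rad54 are blue triangles. The opi3 strain lies left of the 2-fold line at −1.60, and ino2 lies just inside the lower line at −0.95.

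Strains of the other pathway genes were also mostly near the median. None of the strains in the lists above was past 2-fold in the same direction on both arrays. The strains lacking UME6 and SCS2, which encodes the membrane protein that holds Opi1 at the endoplasmic reticulum, lay at 1.58 and 1.18 on the SOD2 array, with 0.84 and 0.44 on the ISU1 array. The app1 strain lay at 1.12 on the SOD2 array and −0.52 on the ISU1 array. These 3 were each read by 2 features on both arrays, and no other strain of the lists was past 2-fold on either array.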

How the data were processed

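The authors deposited 1 log2 signal for each probe set and array, made with RMA (limma is listed too), per the submitters' processing notes. RMA makes array distributions nearly equal, so a shift of the whole transcriptome would not be seen. Of 10928 probe sets, the 5498 annotated to 1 gene of the RefSeq table (assembly R64) were tested. Integration values are deposited linear ratios of 2 channels, with scaling and direction not given in the sources used here. Features whose numbers differ by 10971 named the same gene in all 3400 pairs with both named, and were averaged as 1 strain after log2 and centring on the array median.

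Expression was fitted on genotype alone (R 4.3.3, limma 3.58.1, lmFit then eBayes), 2 arrays against 2, 2-sided, with Benjamini-Hochberg adjustment over all 5498 probe sets. The residual degrees of freedom were 2 and the prior 3.23. Python 3.11.15 with pandas 2.3.3 did the rest. The procedures were tested on simulated data. For expression, smaller changes were simulated too, but recovery was required only of changes about as large as that of INO2. The recovery of the smaller changes is not given here, so no sensitivity is claimed for the smaller differences above. The number of arrays limits the precision.

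The genes, lists and tests were chosen with earlier results of these data known. Named were the 9 genes, members of each list past the threshold (up to 4, or the 2 with the largest difference where none passed), the 5 genes nearest to INO2, its adjacent genes, and list strains past 2-fold on both arrays. As no list strain was, those past it on 1 array are named after their values were seen. The motif search in promoters that was planned was not run. Alternatives were each array left out, the replicate number as a block, other scalings, a filter on dim probe sets, a variance trend, and other centring or features for strains.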

Additional observations from a re-analysis of the deposited data

Results flagged for a closer look

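Of the 6 deletion strains, 4 lay on opposite sides of the median on the ISU1 and SOD2 arrays, which 39.2% of all strains on both arrays also did. The ISU1 value minus the SOD2 value was 1.17 (log2) for ino2, and 119 of 4235 strains (2.81%) were farther apart in either direction. As deposited, the arrays correlated with r = 0.53, and 108 strains were past 2-fold in the same direction on both, against 1 with the sign of the SOD2 array turned. With that sign turned, 2 of the 6 strains (itr1 and opi3) and 60.6% of all strains would lie on opposite sides. The ino2 difference would then be −0.72, with 1191 strains (28.1%) farther apart. With the deposited signs the difference was −0.94 for ino1, −0.33 for cho2 and −0.31 for opi1. There was 1 array for each cassette, so the difference between cassettes was not tested, and the ino2 and ino1 values rest on 1 feature each. Over the named strains with 1 feature on both arrays the SD of this difference was 0.65, against 0.46 over those with 2.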

How the results depend on the processing

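The difference of INO2 lay between −1.47 and −1.33 with any 1 array left out and was −1.33 after quantile normalization again. Leaving out 1 array gave ranges of −0.0069 to 0.0795 for INO4, −0.0796 to 0.0077 for INO1, −0.0342 to 0.0474 for ITR1, −0.0655 to 0.0844 for CHO2 and −0.37 to −0.27 for PSD1, with 0 of the 8 genes past the threshold. ITR1 also changed sign, to −0.0063, after quantile normalization again. KIN1 ranged over −0.027 to 0.248, the first without wild type replicate 1. Counts over all probe sets were 75 rises and 71 falls, with 52 to 194 rises and 23 to 307 falls when 1 array was left out (52 and 23 without wild type replicate 1, 116 and 307 without fun30 deletion replicate 1, 194 and 208 without wild type replicate 2). With the chromosome IV genes from YDR211W to YDR261C left out, 5451 probe sets were tested, and 23 rose and 45 fell. Of the 62 pathway genes, 0 to 5 passed with 1 array left out, and of the 10 known targets 0 to 2.

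The genotypes share the replicate numbers 1 and 2, and same-numbered arrays deviated together with r = 0.26, which with 2 pairs does not show that the numbers pair the arrays. With the replicate block 271 of the 5498 tested probe sets rose and 523 fell, and PSD1 passed (−0.32, adjusted p = 0.0305, limma). Of the 62 pathway genes 9 passed, all of them lower. That share is close to that of all probe sets called in either direction, but above the share that fell (523 of 5498). The known targets among them were 2, CDS1 (adjusted p = 0.0390, limma) and HNM1 (adjusted p = 0.0230, limma).

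The count of strains past 2-fold on both arrays was 108, and 307 were past 1.5-fold. The cho2 value on the ISU1 array was 0.41 from the lower-numbered feature and −0.54 from the upper. With the sign of the SOD2 array turned, ino2 would lie at 0.95, cho2 at −0.26 and opi3 at 0.60 there, and 1 strain would be past 2-fold on both arrays. Features of the upper block, or both features, gave no value for ino2, ino1 and opi3. Both alternatives of the promoter motif were not run.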
